A study of Homo sapiens with 14 samples.

Results

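The interferon-stimulated genes are the set of antiviral effectors, sensors and regulators that cells switch on in response to interferon. The 43 genes described here were listed by symbol, and all 43 were found among the 23106 gene symbols counted in each library. The members were chosen by their measured spread between the PC3 replicates, since an earlier look at these data had shown genes of this kind high in replicate 1 and low in replicate 4, so that the spread between replicates below is what chose them and is given as a description without a test. Polyadenylated RNA was sequenced from PC3 cells, a line derived from prostate carcinoma, and HCT116 cells, a line from colorectal carcinoma. Each line was kept in normoxia (21% O2) or in hypoxia (0.5% O2) for 16 h, and the labels number 4 replicates of PC3 and 3 of HCT116 under each oxygen level. The labels list no interferon or other agent among the treatments, and the lines were grown in different media (DMEM/Hams F12 for PC3, McCoy's 5a for HCT116), so that line and medium cannot be told apart. The study's methods call the replicates biological, and the labels add nothing on how the cultures were kept apart, so the p-values measure the spread between these samples.

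Type I interferons (IFN-alpha and IFN-beta) bind the receptor chains IFNAR1 and IFNAR2, and type III interferons (IFN-lambda) bind IFNLR1 and IL10RB. The kinases JAK1 and TYK2 then phosphorylate STAT proteins, STAT2 among them, and these join IRF9 to form ISGF3, a complex that binds the interferon-stimulated response element (ISRE) in the promoters of these genes. Many of the genes encode the pathway's own parts (STAT2, IRF9, IRF7, and the RNA sensors DDX58, also called RIG-I, and IFIH1, also called MDA5), and others feed back to restrain it (USP18).

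The total of the counts was between 71228454 and 123935458 per library in PC3 and between 133067391 and 150630928 in HCT116. At this depth 3 counts, taken as the floor, correspond to 0.0201 to 0.0447 CPM (counts scaled to a common library size), which covers counting error only. The 4 hypoxia markers CA9, NDRG1, ANGPTL4 and BNIP3 rose in hypoxia in both lines, as tested with edgeR. The labelled lines were epithelial by EPCAM (402 CPM in PC3 and 315 in HCT116 in normoxia) and KRT8. The prostate marker KLK3 was at 0 in PC3, although HOXB13 was at 81.0 CPM, and in HCT116 CDX2 was at 17.6 CPM. Of the leukocyte markers, PTPRC (CD45) was at 0.605 CPM in PC3 and 0 in HCT116, and CLEC4C, a marker of plasmacytoid dendritic cells, was at 0 in both lines in normoxia.

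The promoter sequences themselves were not used to choose the genes. The list, however, holds genes known to respond to interferon, so a high share with an ISRE core follows from the kind of gene listed. RefSeq promoter windows (GRCh38.p14; 250 bases before to 50 bases after a transcription start) were matched by symbol to 34 of the 43 genes, with 46 windows in all. The core of the ISRE was searched on both strands as GAAA, any 2 bases, and GAAA again. It was present in a window of 22 of the 34 genes (64.7%), against 4.38% of the 27305 genes in the table. The GAS element, an interferon-gamma activated site, was searched as TTCNNNGAA, which reads the same on both strands, and was present in 11 of the 34 (32.4%) against 9.38% of genes. The core of the hypoxia response element, the site bound by HIF, was searched as ACGTG on both strands and was present in 8 of the 34 (23.5%) against 24.9%. The 3 motifs may overlap one another, and a match is only a match of letters. The following windows are those of genes whose levels are described further below. The capitals mark the ISRE cores, or their reverse complement, in the first 7 and the GAS match in the last, and positions are those of an exact match of each sequence in GRCh37.

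ISG15, chr1:948627-948926, plus strand: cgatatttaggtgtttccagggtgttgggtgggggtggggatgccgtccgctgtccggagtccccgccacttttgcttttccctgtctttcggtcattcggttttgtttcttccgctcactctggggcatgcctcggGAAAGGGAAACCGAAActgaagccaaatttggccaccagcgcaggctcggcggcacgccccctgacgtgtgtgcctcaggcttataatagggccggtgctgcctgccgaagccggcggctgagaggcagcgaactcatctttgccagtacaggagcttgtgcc
IFIT1, chr10:91152130-91152429, plus strand: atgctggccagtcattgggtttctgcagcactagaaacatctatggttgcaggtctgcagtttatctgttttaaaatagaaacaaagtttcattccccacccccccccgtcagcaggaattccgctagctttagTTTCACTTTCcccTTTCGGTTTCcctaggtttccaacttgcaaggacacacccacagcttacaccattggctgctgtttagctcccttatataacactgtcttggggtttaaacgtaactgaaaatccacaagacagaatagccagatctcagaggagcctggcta
IFI6, chr1:27998654-27998953, minus strand: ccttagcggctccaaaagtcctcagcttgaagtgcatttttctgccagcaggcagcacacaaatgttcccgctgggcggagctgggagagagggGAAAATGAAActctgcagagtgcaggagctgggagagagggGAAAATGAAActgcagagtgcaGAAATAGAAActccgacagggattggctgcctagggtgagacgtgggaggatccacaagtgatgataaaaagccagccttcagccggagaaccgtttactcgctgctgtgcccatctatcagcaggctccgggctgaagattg
IFI44L, chr1:79085883-79086182, plus strand: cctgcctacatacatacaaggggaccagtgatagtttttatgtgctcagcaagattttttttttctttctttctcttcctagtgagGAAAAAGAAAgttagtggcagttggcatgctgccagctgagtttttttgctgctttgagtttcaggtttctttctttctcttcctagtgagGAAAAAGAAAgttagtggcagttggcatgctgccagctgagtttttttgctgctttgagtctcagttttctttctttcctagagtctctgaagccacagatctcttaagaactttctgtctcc
IFITM1, chr11:313790-314089, plus strand: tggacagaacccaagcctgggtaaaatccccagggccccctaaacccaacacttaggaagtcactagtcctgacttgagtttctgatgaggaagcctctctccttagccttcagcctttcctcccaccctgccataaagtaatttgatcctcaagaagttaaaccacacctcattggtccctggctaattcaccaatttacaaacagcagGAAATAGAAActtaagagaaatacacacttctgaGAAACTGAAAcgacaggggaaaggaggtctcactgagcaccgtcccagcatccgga
BST2, chr19:17516390-17516689, minus strand: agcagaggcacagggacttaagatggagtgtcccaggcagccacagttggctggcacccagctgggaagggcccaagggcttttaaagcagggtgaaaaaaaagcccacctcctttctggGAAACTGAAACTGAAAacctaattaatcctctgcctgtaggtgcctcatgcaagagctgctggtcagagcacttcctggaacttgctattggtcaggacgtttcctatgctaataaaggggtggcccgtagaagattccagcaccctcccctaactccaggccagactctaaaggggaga
ISG20, chr15:89181997-89182296, plus strand: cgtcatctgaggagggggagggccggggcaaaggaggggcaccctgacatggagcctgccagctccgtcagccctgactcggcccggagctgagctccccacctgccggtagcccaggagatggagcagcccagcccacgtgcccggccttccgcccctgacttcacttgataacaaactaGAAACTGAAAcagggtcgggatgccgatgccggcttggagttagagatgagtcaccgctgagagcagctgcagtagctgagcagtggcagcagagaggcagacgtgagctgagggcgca
IRF1, chr5:131826416-131826715, minus strand: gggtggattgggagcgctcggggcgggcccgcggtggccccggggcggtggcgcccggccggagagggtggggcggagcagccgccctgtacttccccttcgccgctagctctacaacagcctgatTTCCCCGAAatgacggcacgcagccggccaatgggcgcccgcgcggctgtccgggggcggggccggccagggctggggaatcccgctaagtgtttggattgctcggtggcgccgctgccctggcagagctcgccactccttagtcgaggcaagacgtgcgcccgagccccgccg

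In ISG15 and in BST2 the 2 cores overlapped each other and lay 113 and 130 bases before the start, counted to the first base of the first core. IFIT1 carried 2 cores on the opposite strand and IFI6 carried 3. IRF1 carried no ISRE core in its window and 1 GAS match. The 12 genes with a window but without a core were IFI35, OAS1, STAT2, IRF1, IRF9, DDX58, HERC6, UBE2L6, XAF1, SAMD9L, CMPK2 and SP100. IFIT2, IFITM2, MX2, OAS2, OASL, IRF7, DHX58, USP18 and TRIM22 had no window in the table.

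Several of the genes lie side by side (GENCODE, GRCh37). IFIT1, IFIT2, IFIT3 and IFIT5 lie on chromosome 10, OAS1, OAS2 and OAS3 on chromosome 12, IFITM1, IFITM2 and IFITM3 on chromosome 11, MX1 and MX2 on chromosome 21, IFI44 and IFI44L on chromosome 1, HERC5 and HERC6 on chromosome 4, and SAMD9 and SAMD9L on chromosome 7. RSAD2 and CMPK2 overlap on opposite strands of chromosome 2. Because the strand setting of the counting was not given in the sources used here, reads of these 2 genes, of PARP9 and DTX3L, of MX1 and TMPRSS2, and of LIPA with IFIT1, IFIT2 and IFIT3 cannot be separated with certainty, and IFITM1, IFITM2 and IFITM3 share near-identical sequence.

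The first comparison asked how the resting level of these genes differed between the lines. In normoxia 41 of the 43 genes were lower in HCT116 than in PC3 and 2, IFIT5 and DHX58, were higher, with adjusted p under the threshold for all 43 (edgeR quasi-likelihood test). Of the 15206 genes tested, 83.4% passed in this comparison and 42.9% were lower in HCT116. The median difference of the 43 genes was -4.05 on the log2 scale against -0.03 over all genes. The normoxic libraries of the 2 lines did not overlap for any of the 43 genes, which was also true of 82.7% of all genes. The count includes 8 genes that passed the filter on low counts in PC3 alone (IFI44L, MX2, OAS1, OAS2, XAF1, RSAD2, SAMD9L and TRIM22) and 1 that passed in HCT116 alone (DHX58), which had to differ. Of the 34 genes that passed it in each line alone, 33 were lower in HCT116 and 1 was higher, with 81.9% of 13089 genes passing and 40.5% lower. A gene must be expressed in PC3 to show the spread that chose these genes. The choice therefore favours a higher level in PC3, and these counts are not free of it. Summed over the 43 genes, the level was 2963 to 6934 CPM in PC3 and 529.7 to 558 CPM in HCT116. In these bulk samples, fewer cells with a transcript and less of it per cell cannot be told apart.

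The level of the 43 genes in PC3 was that of well expressed genes. In PC3 in normoxia 15 had a mean of 100 CPM or more, 23 lay between 10 and 100, 4 between 1 and 10 and 1, DHX58, under 1. In HCT116 the numbers were 1, 13, 14 and 15. Per kilobase of the union of all annotated exons of a gene (CPM per kilobase), the highest in PC3 in normoxia were IFI6 (315 ± 173, SD, n = 4), ISG15 (192 ± 66.1), IFITM3 (96.3 ± 11.9) and IFITM2 (69.6 ± 4.36). The values of IFI6 and ISG15 overlapped between libraries, so their order is not fixed beyond their spread. The union can be much longer than a transcript, at 17984 bases for MX1 and 18045 for OAS3 against 936 for IFI6 and 867 for ISG15, so this order holds for the union and not for transcript length.

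**Figure D1:**
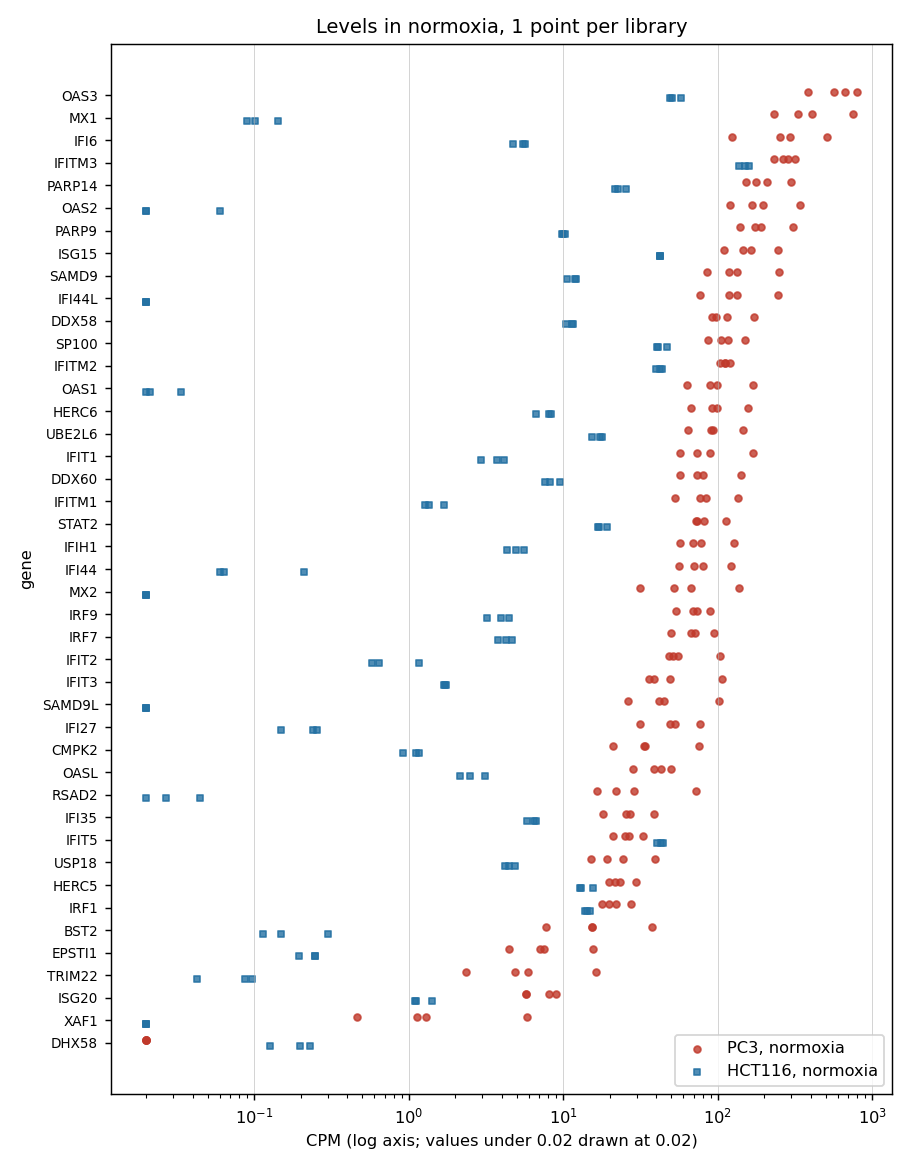
Level of each of the 43 genes in the normoxic libraries, in CPM on a log axis, with 1 point per library (circles, 4 PC3 libraries; squares, 3 HCT116 libraries) and genes ordered by their PC3 mean; values below the limit named on the axis, 0 included, are drawn at that limit. The lines are separated for every gene; IFIT5 and DHX58 are the 2 genes in which HCT116 lies to the right, and MX1 spans from 229.8 to 747 CPM in PC3 against 0.0896 to 0.142 in HCT116.

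Among the antiviral effectors, MX1, a dynamin-like GTPase that traps viral nucleocapsids, was at 747, 409.6, 332 and 229.8 CPM in the PC3 libraries of replicates 1 to 4 and at 0.101, 0.142 and 0.0896 CPM in HCT116. The lines were far apart, and the PC3 libraries also differed widely among themselves. The log2 difference was -11.9 (SE 0.621, adjusted p = 7.58e-08, edgeR). Its neighbour MX2 had 34264 counts in PC3 and 4 in HCT116, a ratio of 7673 (95% interval 2996 to 28162, counting error only). The 2'-5'-oligoadenylate synthetases make the second messenger that activates RNase L. OAS3 was at 385 to 796 CPM in PC3 and 48.9 to 57.8 CPM in HCT116, a log2 difference of -3.51 (SE 0.239, adjusted p = 5e-07, edgeR). OAS1 and OAS2 were nearly absent from HCT116, with 10 and 12 counts in 3 libraries against 49666 and 98252 in PC3, ratios of 4449 (2419 to 9278) and 7334 (4198 to 14194). OAS3, which lies between them, was the only one of the 3 genes at over 1 CPM in HCT116.

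IFI44L, of unknown biochemical function, had no count in the 3 normoxic HCT116 libraries and 68206 in PC3, so that it was at least 20365-fold higher in PC3 (floor of 3 counts over the group). SAMD9L, a restriction factor of poxviruses, had 1 count in HCT116 against 25463 in PC3, a ratio of 22808 with a wide counting interval (4093 to 900909). Its neighbour SAMD9 was at 85.3 to 250.4 CPM in PC3 and 10.6 to 12.1 CPM in HCT116. RSAD2 (viperin), which makes a chain-terminating nucleotide, had 11 counts in HCT116 and 16680 in PC3, and XAF1, a pro-apoptotic factor, had 1 and 1029. IFI44L, SAMD9L, RSAD2 and XAF1 were thus close to absent from HCT116, whereas SAMD9 was not.

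IFIT1, which binds RNA without a 2'-O-methylated cap, was at 169, 88.9, 73.9 and 56.9 CPM in the 4 PC3 libraries and at 2.94, 3.74 and 4.14 CPM in HCT116. The log2 difference was -4.74 (SE 0.406, adjusted p = 2.57e-06, edgeR). IFIT2 and IFIT3 were also lower in HCT116, with log2 differences of -6.33 and -5.04. IFIT5, in the same cluster, was the exception, with 32.6, 26.5, 25.1 and 21.1 CPM in PC3 and between 40.4 and 44.1 CPM in the 3 HCT116 libraries, all 3 above all 4 of PC3. It was higher in HCT116 by 0.71 on the log2 scale (SE 0.131, adjusted p = 0.000652, edgeR). IFI6, a mitochondrial and ER membrane protein, was at 123 to 513 CPM in PC3 and 4.72 to 5.64 in HCT116. IFI27 was at 31.5 to 77.2 CPM in PC3 and at 0.149 to 0.255 CPM in HCT116, a log2 difference of -7.91.

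The smallest differences were in genes with a level of their own in HCT116. IFITM3, a membrane protein that blocks viral fusion, was at 314, 284, 265 and 233 CPM in PC3 and 159.8, 150 and 137 CPM in HCT116, the only one of the 43 genes above 100 CPM there. Its log2 difference was -0.86 (SE 0.107, adjusted p = 3.99e-05, edgeR), that of IFITM2 was -1.39 and that of IFITM1 -5.90. The ubiquitin-like modifier ISG15 was at 110.4 to 246 CPM in PC3 and at 42.1 to 42.2 CPM in HCT116, a log2 difference of -1.97. HERC5, the ligase that attaches ISG15 to proteins, differed by -0.75 and the conjugating enzyme UBE2L6 by -2.53. IRF1, a transcription factor induced by interferon and NF-kappaB, was at 17.9 to 27.5 CPM in PC3 and 13.9 to 14.9 CPM in HCT116, a log2 difference of -0.59 (SE 0.14, adjusted p = 0.00314, edgeR).

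Of the regulators, STAT2, IRF7 and IRF9 were lower in HCT116, with log2 differences of -2.25, -4.04 and -4.18. The RNA sensors DDX58 and IFIH1 were at 91.3 to 171 and 56.7 to 128 CPM in PC3, against 10.4 to 11.6 and 4.35 to 5.61 CPM in HCT116. The third sensor of this family, DHX58 (LGP2), was the only one of the 43 genes at 0 in PC3 in normoxia. It had no count in any normoxic PC3 library and 78 counts in HCT116 (0.127, 0.198 and 0.231 CPM), at least 29.0-fold more.

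Outside the 43 genes, the parts of the pathway upstream of them were compared by lists drawn up from general knowledge. None of 22 interferon genes reached 1 CPM in either line. IFNL1 was at 0.729, 0.337, 0.155 and 0.364 CPM in the normoxic PC3 libraries and IFNB1 at 0.428, 0.0843, 0.0969 and 0.0911 CPM, and neither had a count in HCT116. All 9 receptor chains and kinases were above 1 CPM in both lines, and 6 were lower and 1 higher in HCT116. Of 11 genes of nucleic acid sensing 10 were tested, 8 of them lower in HCT116. MB21D1, which encodes the DNA sensor cGAS, was at 27.3 CPM in PC3 and 0.0194 in HCT116, and IFI16, another DNA sensor, at 58.5 and 0.00906. Of 29 further antiviral effectors 26 were lower in HCT116, 1 higher and 2 did not pass. The 14 negative regulators had 5 lower and 7 higher in HCT116. In this comparison 83.4% of all genes tested passed, 42.9% lower and 40.5% higher in HCT116. The receptors and kinases and the negative regulators passed at about this share.

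The spread between the PC3 replicates was then described, since it is what brought these genes together. Of the 42 genes that passed the filter in PC3 (DHX58 did not), 35 had their highest value in replicate 1 and their lowest in replicate 4 in both conditions, that is 83.3% of them against 7.16% of the 14309 genes tested. The median difference between the replicate 1 pair and the replicate 4 pair was 1.27 on the log2 scale, with a range from -0.14 (ISG20) to 3.83 (XAF1), and was -0.015 over all genes. The difference was above 1 in 30 of the 42 genes and in 3.69% of all genes. Replicate 1 stood above the mean of its condition in normoxia for 42 of 42 genes and in hypoxia for 41 of 42, against 44.7% and 48.1% of all genes. Replicate 4 stood above that mean for only 2 genes in normoxia and 3 in hypoxia, against 54.9% and 49.4% of all genes. Replicates 2 and 3 lay between, with medians from -0.152 to 0.021.

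**Figure D2:**
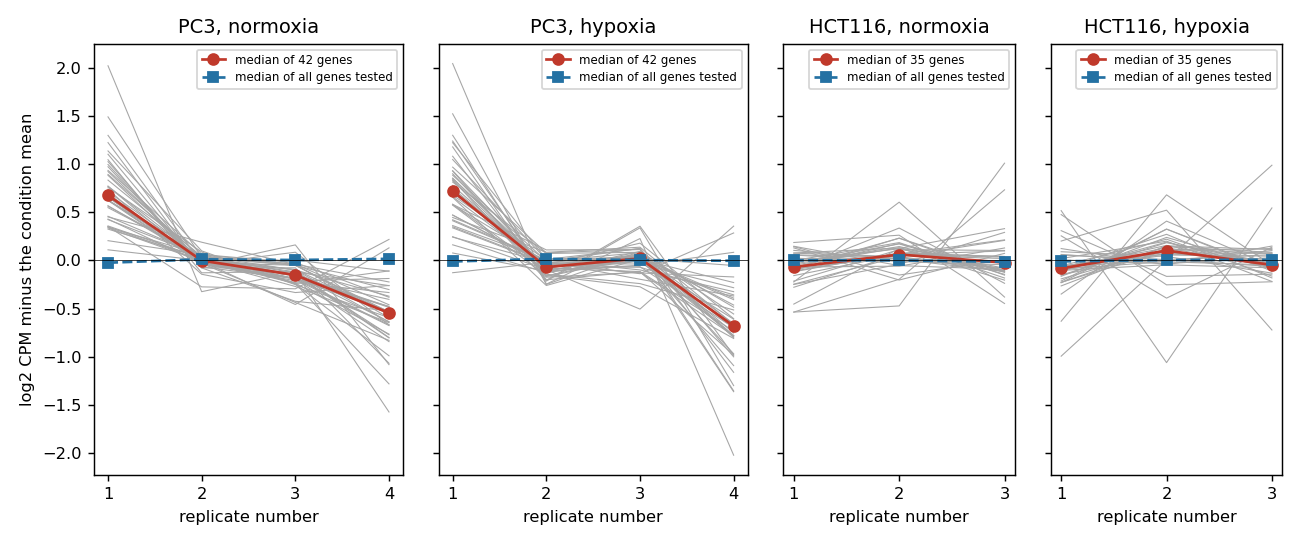
Deviation of each library from the mean of its condition, in log2 CPM, against the replicate number, for each gene tested in that line (grey lines join 1 gene and carry no order), with the median of these genes (red circles) and of all genes tested (blue squares). The medians of the PC3 libraries are 0.676 for replicate 1 and -0.546 for replicate 4 in normoxia and 0.72 and -0.682 in hypoxia; those of the 6 HCT116 libraries lie between -0.084 and 0.102.

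XAF1 varied most, with 5.8, 1.13, 1.3 and 0.464 CPM in normoxia and 6.02, 1.22, 1.7 and 0.343 CPM in hypoxia for replicates 1 to 4. TRIM22, a ubiquitin ligase, was at 16.2, 5.88, 4.87 and 2.35 CPM in normoxia and 15.9, 4.63, 5.87 and 2.13 CPM in hypoxia. In both genes replicate 1 was the highest and replicate 4 the lowest in each condition, while replicates 2 and 3 lay close together. BST2 (tetherin), which holds budding virions at the cell surface, was at 37.8, 15.3, 15.3 and 7.7 CPM in normoxia and 47.1, 17.9, 26.3 and 8.43 CPM in hypoxia. MX2, SAMD9L and RSAD2 also differed by more than 2 on the log2 scale between the replicate 1 and the replicate 4 pair (2.14, 2.26 and 2.09). IFI6, IFIT3, CMPK2 and SAMD9 followed, at 1.94, 1.92, 1.86 and 1.84.

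A few genes did not share this spread. ISG20, a 3'-5' exonuclease, was at 8.94, 5.78, 5.7 and 8.14 CPM in normoxia, so that replicates 1 and 4 were both high. OASL was at 49.5, 38.9, 28.5 and 42.8 CPM. IFITM2 ranged only from 103 to 120.4 CPM and IFITM3 from 233 to 314. Their differences between the 2 pairs were -0.14, 0.05, 0.11 and 0.32, and that of HERC5 was 0.49. STAT2, IRF1, IRF9 and IRF7, the transcription factors among the 43, lay between, at 0.76, 0.68, 0.60 and 0.84.

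The genes with an ISRE core in their window and those without did not separate by this measure. Both sets were chosen by it, so this is a description, and the part of the ISRE in the spread was not tested. The median difference was 1.39 (-0.14 to 2.39) in the 22 genes with a core and 1.11 (0.60 to 3.83) in the 12 without. XAF1, the gene with the largest spread, had none in its windows, and ISG20, with the smallest, had 1. In HCT116 in normoxia 7 of the 22 and 3 of the 12 were under 1 CPM.

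The upstream genes moved with the replicate numbers only in part. The receptors and kinases, with a median of 0.10, and the negative regulators, with -0.07, lay close to all genes. The median was 0.29 for nucleic acid sensing, 0.57 for antigen presentation and 2.12 for the 4 chemokines. IFNL1, with few counts, was at 0.729 CPM in replicate 1 and 0.364 in replicate 4 in normoxia and at 0.569 and 0.179 in hypoxia, and IFNB1 had 51, 11, 10 and 11 counts in normoxia and 17, 1, 6 and 2 in hypoxia. The summed level of the 22 interferon genes was 1.55 CPM in replicate 1 in normoxia and 0.543 to 0.895 in the others, and in hypoxia 1.26 against 0.432 to 0.647. Of the 29 further effectors, 21 had replicate 1 highest and replicate 4 lowest in both conditions (7.16% of all genes). Among them was GBP1, an interferon-induced GTPase, at 80.0, 23.2, 23.7 and 11.6 CPM in normoxia. The part of these genes, or of any other, in the spread was not tested.

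Other measures of the libraries were set beside it. The 10 leukocyte markers summed to 36.8 to 39.8 CPM in the normoxic PC3 libraries and to 43.4 to 53.5 CPM in the hypoxic ones, nearly all of it CD68. The 4 of them that passed the filter had a median difference of 0.79 between the replicate 1 and the replicate 4 pair, with 2 above 1, PTPRC at 1.2 and LYZ (lysozyme) at 1.04, and with CD14 at 0.53 and CD68 at -0.20. PTPRC was at 0.788, 0.406, 0.795 and 0.431 CPM in normoxia and 0.558, 0.22, 0.517 and 0.179 CPM in hypoxia, so that replicates 1 and 3 were both high. The B-cell marker MS4A1 and CLEC4C were at 0 in all 8 PC3 libraries. The 4 hypoxia markers summed to 489.7, 347, 331 and 433 CPM in normoxia and to 2125, 2979.8, 2289 and 3673 in hypoxia, with replicate 1 the lowest and replicate 4 the highest in hypoxia. The total count was lowest in the hypoxic library of replicate 4 (71228454), while in normoxia replicates 1 and 4 had nearly the same total (112325099 and 114153466). The part of these measures in the spread was not tested.

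The next comparison asked how the genes responded to hypoxia in PC3. Without regard to replicate number, 1 of 42 genes passed (ISG20), where 11.3% of all genes did, 6.03% higher and 5.29% lower (edgeR, adjusted p under 0.05), and 5 had an unadjusted p under 0.05. The spread between replicates that chose these genes is part of the error of this fit. A low count here therefore follows in part from that choice and is no result about their response. When the fit included replicate number as a block, 25 of the 42 rose and 0 fell, a share of 59.5% against 14.9% of all genes that rose and 13.6% that fell. The block takes up the spread that chose these genes, so this count is not free of that choice either. The numbers pair the PC3 libraries in the sense that same-numbered libraries deviated together in each of the 4 pairs, with correlations across genes from 0.149 to 0.689. Libraries of unlike number reached 0.207 (normoxic replicate 4 with hypoxic replicate 2) and 0.143 (normoxic 2 with hypoxic 3). The pairing was thus clear for replicate 1 (0.689) and weak for the others. The sizes were alike in both fits, with medians of 0.35 and 0.34 on the log2 scale against 0.002 and -0.002 over all genes. In each fit 38 of 42 differences were above 0, against 50.4% of all genes without the block and 49.6% with it. The block was planned as an alternative, and its count ranged from 16 to 36 when a pair was left out. It was 16 without the replicate 3 pair, 17 without the replicate 1 pair and 36 without the replicate 4 pair (35 higher, 1 lower). It was 19 (18 higher, 1 lower) when scaled to library totals. The share of all genes called was not set beside these alternative counts, so their changes cannot be read as particular to these genes.

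Pair by pair, 28 genes were higher in hypoxia in all 4 pairs, as were 25.0% of all genes, and 2, IFIT5 and IRF1, were lower in all 4 (26.1% of all genes). Another 8 genes were higher in the pairs of replicates 1 to 3 and lower in that of replicate 4 (8.76% of all genes). These were IFIT3, IFI44, IFIH1, XAF1, PARP14, SAMD9, SAMD9L and SP100. The genes above 0 numbered 38, 37, 39 and 29 of 42 in the pairs 1 to 4, with medians of 0.33, 0.24, 0.46 and 0.32. Over all genes the shares above 0 were 48.9%, 50.2%, 48.4% and 49.2%.

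**Figure D3:**
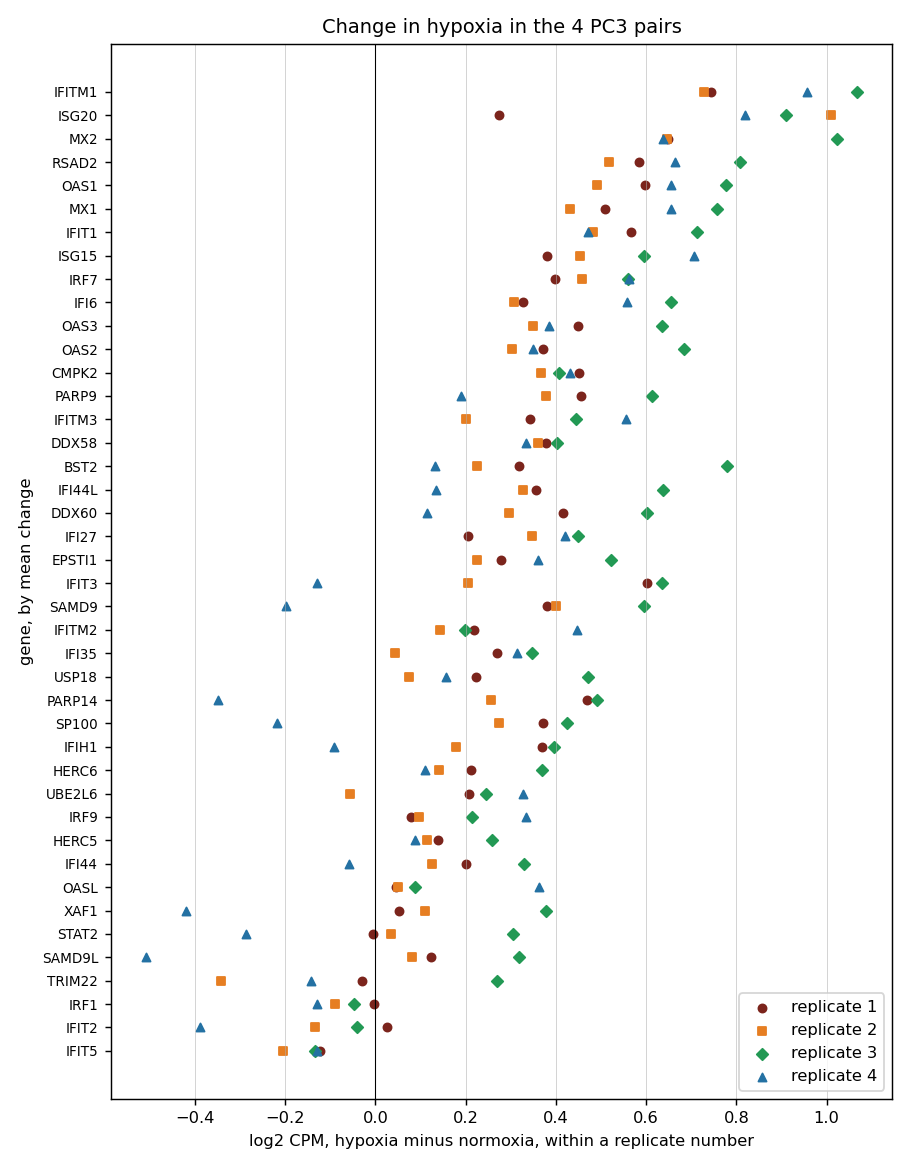
Change in hypoxia within each PC3 replicate number, as the difference of log2 CPM between the hypoxic and the normoxic library, for the 42 genes tested, ordered by their mean (symbols, the 4 replicate numbers). All 4 symbols lie to the right of 0 for 28 genes, IFITM1 at the top, and the replicate 4 symbol alone lies to the left of 0 for 8.

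IFITM1 was at 135, 83.8, 76.9 and 52.8 CPM in normoxia and 226, 139, 161 and 103 CPM in hypoxia. Within each number the hypoxic library was higher, although the groups overlapped. The log2 difference was 0.88 (SE 0.07, adjusted p = 0.000534, edgeR with the block), and 0.86 (SE 0.307, adjusted p = 0.106) without. ISG20 rose from 7.14 ± 1.65 to 11.9 ± 1.72 CPM (SD, n = 4) without overlap, by 0.74 (SE 0.171, adjusted p = 0.0246, edgeR without the block). Only IFITM2 and IFITM3 besides had no overlap between the conditions (3 of 42 genes; 20.9% of all genes).

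IFITM3 was at 398, 326, 360.2 and 343 CPM in hypoxia and IFITM2 at 140.2, 123, 128 and 141, and with the block they rose by 0.39 and 0.26. MX1 was at 1063, 552, 561 and 362 CPM in hypoxia against 747, 409.6, 332 and 229.8 in normoxia. Each hypoxic library was above its normoxic partner, and replicate 1 in normoxia was above 3 of the hypoxic libraries. The log2 difference was 0.59 (SE 0.067, adjusted p = 0.00163, edgeR with the block) and 0.57 (SE 0.401, adjusted p = 0.398) without. The point estimates were alike and the standard errors differed.

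By role, the genes that rose with the block included all 3 OAS enzymes (OAS1 0.64, OAS2 0.43, OAS3 0.46), both MX proteins (MX2 0.74), all 3 IFITM proteins, ISG15 (0.54) with its protease USP18 (0.24), the RNA sensor DDX58 (0.37) and the related helicase DDX60 (0.36), and the transcription factor IRF7 (0.50), which drives type I interferon genes. RSAD2 (0.65), CMPK2 (0.42), IFI6 (0.47), IFI27 (0.36), IFI35 (0.25), IFI44L (0.37), EPSTI1 (0.35), PARP9 (0.41), HERC6 (0.21) and BST2 (0.38) also rose. In the fit without the block, HERC6, USP18, EPSTI1, CMPK2 and BST2 turned below 0 when the hypoxic library of replicate 1 was left out (-0.054 to -0.124). That fit kept the normoxic library of replicate 1, and each of these genes was higher in hypoxia in all 4 pairs. Partners of these genes that did not pass were the ISG15 ligase HERC5, at 0.15 (SE 0.051, adjusted p = 0.0622), the conjugating enzyme UBE2L6, at 0.19 (SE 0.071, adjusted p = 0.0924), and the RNA sensor IFIH1, at 0.22 (SE 0.084, adjusted p = 0.0915). Of the IFIT family only IFIT1 did pass, rising by 0.56 (SE 0.056, adjusted p = 0.00106, edgeR). IFIT2 was at -0.13 (SE 0.071, adjusted p = 0.215), IFIT3 at 0.34 (SE 0.125, adjusted p = 0.0845) and IFIT5 at -0.14 (SE 0.047, adjusted p = 0.0622). STAT2, IRF1 and IRF9 did not pass, at 0.02, -0.06 and 0.18.

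Of the pathway genes outside the 43, TYK2 fell by 0.41 in both fits (adjusted p = 0.00439 without the block, edgeR), the only one of 9 receptors and kinases past the threshold. The 4 interferon-induced chemokines, which attract T cells, did not pass and differed in sign, with CXCL9 at 0.69 (SE 0.434, adjusted p = 0.259), CCL5 at 0.34 (SE 0.231, adjusted p = 0.307), CXCL10 at -0.002 (adjusted p = 0.996) and CXCL11 at -0.28 (SE 0.094, adjusted p = 0.0669, edgeR with the block). CXCL11 alone had an unadjusted p under 0.05 (0.0217). Over all genes 14.9% rose and 13.6% fell with the block. Of the 29 further effectors 8 rose and 2, CD274 (PD-L1) and NMI, fell with the block, by 0.61 and 0.33. Without the block CD274 was at -0.56 (SE 0.439, adjusted p = 0.45) and NMI at -0.32 (SE 0.156, adjusted p = 0.22).

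In HCT116, 6 of 35 genes passed (edgeR, without a block), 4 higher and 2 lower, a share below the 25.9% of all genes called (14.6% higher, 11.3% lower). With the block 7 passed, adding OAS3, where 26.6% of all genes did (14.9% higher, 11.7% lower). Their median was 0.01. ISG20 was at 1.11, 1.41 and 1.10 CPM in normoxia and 3.08, 3.96 and 2.89 in hypoxia, without overlap. It rose by 1.47 (SE 0.167, adjusted p = 0.00013). IRF7 rose from 4.23 ± 0.432 to 6.30 ± 0.31 CPM (SD, n = 3), by 0.59 (SE 0.105, adjusted p = 0.00232), IRF1 by 0.30 (adjusted p = 0.0162) and IFI6 by 0.37 (adjusted p = 0.047). IFIH1 was at 4.93, 5.61 and 4.35 CPM in normoxia and 3.01, 2.91 and 2.77 in hypoxia, and fell by 0.76 (SE 0.12, adjusted p = 0.00124). STAT2 fell by 0.45 (SE 0.093, adjusted p = 0.00531). The conditions did not overlap for 8 of 35 genes, against 42.5% of all genes. Scaled to library totals, under which the median of all genes moved to -0.09, 2 genes were higher and 5 lower, with IFIT1, IFIT5 and PARP14 among the lower and IRF1 and IFI6 not past the threshold.

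Because an effect past the threshold in 1 line only does not show a difference, the responses of the lines were compared directly as the interaction of line and oxygen. Without the block, 0 of 43 genes passed with edgeR and 0 with DESeq2, where 2.32% of 15493 genes did with edgeR (1.31% higher in HCT116, 1.01% lower), and 4 had an unadjusted p under 0.05 (IFIH1, IFITM1, IFITM3 and ISG20). Here too the PC3 spread that chose the genes is part of the error, so a low count follows in part from that choice. With the replicate number as a block within each line, 11 of 43 passed, where 8.43% of all genes did. For 10 of them the response was lower in HCT116 (3.85% of all genes) and for 1, ISG20, it was higher (4.58%). The block takes up the PC3 spread that chose the genes, so the count of 11 is not free of that choice either. The HCT116 replicates share only a number. The count of 11 fell to 6 without the replicate 1 pair of PC3, to 7 without the replicate 2 pair and to 5 without the replicate 3 pair, and was 17 without the replicate 4 pair. IFIT1, IFIH1, IFITM1, DDX58 and DDX60 passed in each of these. The share of all genes called without a pair was not set beside these counts, so their changes cannot be read as particular to these genes.

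IFIT1 averaged 3.61 CPM in normoxia against 2.87 in hypoxia in HCT116, and 97.2 against 144 CPM in PC3, and its response was lower in HCT116, with a difference of -0.88 (SE 0.099, adjusted p = 0.000357, edgeR with the block). IFITM1 was at 1.44 and 1.34 CPM in HCT116, a difference of responses of -0.98 (SE 0.139, adjusted p = 0.00155). For IFIH1 it was -0.98 (SE 0.132, adjusted p = 0.00114), for DDX58 -0.54, for DDX60 -0.54 and for PARP9 -0.52. For ISG20 it was 0.70 (SE 0.181, adjusted p = 0.0345), with a rise in both lines. For MX1, at 0.17 (SE 0.291), and IFI27, at 0.32 (SE 0.192), a difference was not detectable at this depth, with both under 0.5 CPM in HCT116. For IRF7 the difference was 0.08 (SE 0.108).

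**Figure D4:**
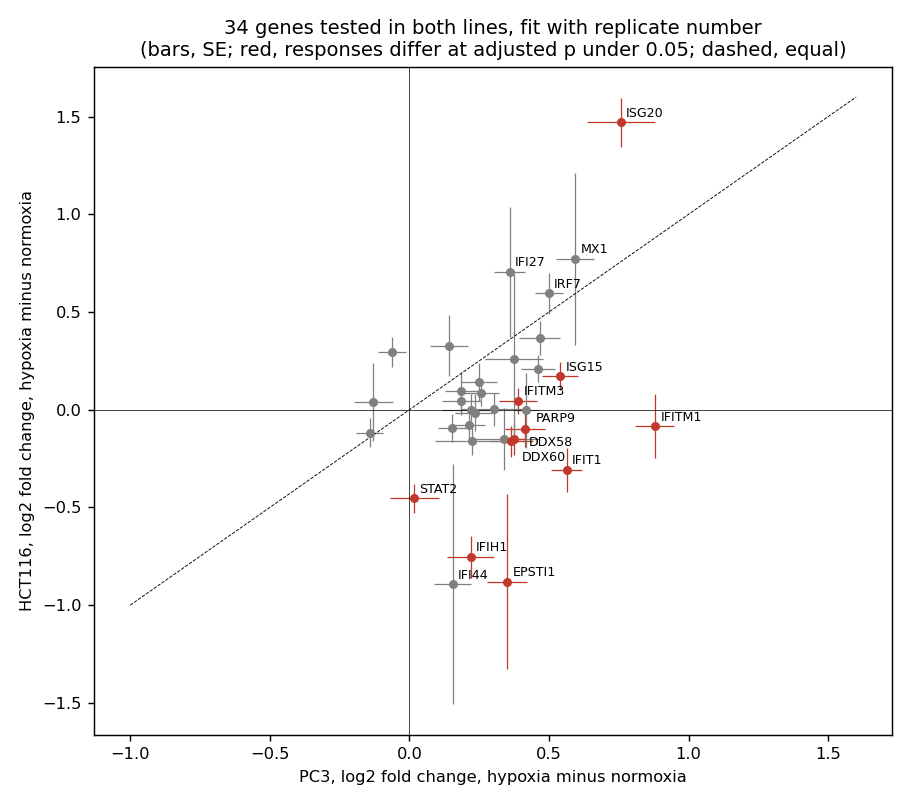
Log2 fold change in hypoxia in HCT116 against that in PC3 for the 34 genes tested in both lines, from the fits with replicate number (bars, SE; dashed line, equal responses; red, the genes whose responses differ). ISG20 lies above the dashed line with 0.76 in PC3 and 1.47 in HCT116, while IFITM1 lies far to the right at 0.88 in PC3 and -0.085 in HCT116.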

How the data were processed

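Polyadenylated RNA-seq of 14 libraries was analysed. The authors aligned reads to GRCh37 with HISAT2 (2.05) and deposited raw counts per RefSeq gene symbol made with HTSeq (0.5.4p3, intersection-strict); SAMtools and DESeq2 are also named in the submitters' processing notes. The strand setting and the RefSeq release were not given in the sources used here. Counts were tested with edgeR 4.0.16 (R 4.3.3; quasi-likelihood test, filterByExpr, TMM factors, Benjamini-Hochberg adjusted p under 0.05 over all genes tested), with separate fits for hypoxia in each line and for the lines in normoxia, and 1 fit for the interaction. DESeq2 1.42.0 was an alternative. CPM used TMM factors over all 14 libraries, and log2 CPM for single libraries a prior count of 2. Standard errors are on the log2 scale. Exact intervals (95%) and floors (3 counts) cover counting error only. The edgeR steps were tested on simulated data. Tables and figures were made with Python 3.11.15, NumPy 2.4.6, pandas 2.3.3, SciPy 1.17.1 and matplotlib 3.10.9.

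Same-numbered PC3 libraries deviated from their group means together (r across 14309 genes 0.689, 0.276, 0.149 and 0.292 for replicates 1 to 4). PC3 libraries of unlike number reached 0.207 (normoxic 4 with hypoxic 2) and 0.143 (normoxic 2 with hypoxic 3), so only replicate 1 was clearly paired. In HCT116 the correlations were 0.092, 0.155 and 0.033. The fits with a block nevertheless used the replicate number in HCT116 as well, both in the HCT116 fit and in the interaction. The labels give no source of the pairing. The 43 genes and the pathway lists were chosen with earlier results of these data known. Any of the 43 genes could be named, as could the genes of the pathway lists and the 10 other genes with the largest difference between the replicate 1 and replicate 4 pairs (mean of at least 1 CPM in PC3, replicate 1 highest and replicate 4 lowest in both conditions).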

Additional observations from a re-analysis of the deposited data

Results flagged for a closer look

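In 2 of the 84 groups of 4 PC3 libraries (42 genes in 2 conditions), 1 library lay far from the other 3 by Dixon's criterion. Chance gives about 1 in 20 independent groups, but these genes share their libraries and were chosen for their spread between replicates, so the values are a description and no test. Both were the normoxic library of replicate 1. IFIT2 was at 103 CPM there and between 48.7 and 55.6 CPM in the other 3, and XAF1 was at 5.8 CPM there and between 0.464 and 1.3 CPM in the others.

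The hypoxia response differed between the lines for 11 genes in the edgeR test of the interaction with the replicate number as a block. As HCT116 minus PC3 on the log2 scale, the differences were -1.17 for EPSTI1, -0.98 for IFITM1, -0.98 for IFIH1, -0.88 for IFIT1, -0.54 for DDX58, -0.54 for DDX60, -0.52 for PARP9, -0.48 for STAT2, -0.38 for ISG15, -0.36 for IFITM3 and 0.70 for ISG20. EPSTI1 was under 0.25 CPM in all 6 HCT116 libraries. Without the block, 0 of the 43 genes passed with edgeR, 4 had an unadjusted p under 0.05 and 0 passed with DESeq2. The choice of the genes by their spread in PC3 favours a low count without the block. The block takes up that spread, so the count with it is not free of the choice either.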

How the results depend on the processing

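For hypoxia in PC3 the count of 1 gene was 2 with median-of-ratios scaling, 3 with DESeq2, 4 in one fit over all 14 libraries and 0 when a log2 difference of 1 or more was also required. It ranged from 0 to 5 when 1 library was left out (0 without the normoxic library of replicate 2 or 3 or the hypoxic library of replicate 2, 5 without the normoxic library of replicate 1), and was 4 without both replicate 1 libraries and 0 without both replicate 4 libraries. With the replicate block it was 25, and the following were chosen after seeing the data: 25 with the block and median-of-ratios scaling, 23 with upper-quartile scaling, 19 with library totals and 29 with DESeq2, and with the block but without the pair of replicate 1, 2, 3 or 4 it was 17, 18, 16 or 36. In HCT116 the count of 6 was 1 with a log2 difference of 1 or more and 1 in one fit over all 14 libraries, 4 to 7 when 1 library was left out, and 7 with the block, where the libraries share only a number. The 43 genes past the threshold between the lines were 33 when at least 10 counts were required in every library, 39 with a log2 difference of 1 or more, and 43 under the other alternatives run. The interaction gave 0 genes with edgeR under every alternative without the block, against 11 with it, and with the block 11 under median-of-ratios, 8 under upper-quartile and 9 under library-total scaling, and 6, 7, 5 and 17 without the pair of replicate 1, 2, 3 and 4. Few calls without the block in PC3 and in the interaction follow in part from the choice of genes by their spread. The counts with the block are not free of that choice either, since the block takes up that spread. The share of all genes called was not set beside these alternative counts, so their changes cannot be read as particular to these genes. Without the hypoxic PC3 library of replicate 1, the hypoxia difference in PC3 turned to -0.054 for HERC6, -0.087 for USP18, -0.08 for EPSTI1, -0.089 for CMPK2 and -0.124 for BST2; over all libraries left out in turn these 5 genes reached 0.499, 0.565, 0.798, 0.919 and 0.986. The fit without that hypoxic library kept the normoxic library of replicate 1, and these 5 genes were higher in hypoxia in all 4 pairs. The cause of these shifts was not tested. The spread between the replicate 1 and replicate 4 pairs, 1.27, was 1.27 to 1.32 under its alternatives. In HCT116, 15 of the 43 genes were under 1 CPM in normoxia, and 35 of the 43 passed the filter on low counts.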

Other observations

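Outside the 43 genes, the 10 genes with the largest difference between the PC3 replicate 1 and replicate 4 pairs, among those of at least 1 CPM with replicate 1 highest and replicate 4 lowest in both conditions, were KRT4, OLR1, BCAS1, GBP1, CP, GLYATL2, EDN1, CXCL10, LGALS9 and ANKRD1. KRT4, a keratin of stratified epithelium, led with 3.85 on the log2 scale, followed by OLR1, a receptor for oxidised LDL, with 3.50. GBP1 and CXCL10, which interferon induces, stood at 2.96 and 2.55. Of the 100 genes with the largest difference among 12311 genes of at least 1 CPM, 14 belonged to the 43, as did 2 of the first 10.

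DHX58 lies on chromosome 17 (40253422 to 40264732, GRCh37), and its neighbours were looked at after its values were seen. In the 8 PC3 libraries together, DHX58 had 3 counts, and KAT2A, RAB5C, GHDC, STAT5B and STAT3, which follow it on the chromosome, had 0 counts each, against 44660, 151352, 10008, 1956 and 55301 in the 6 HCT116 libraries. STAT5A, HSPB9, KCNH4 and HCRT also had 0 counts in PC3 but only 16, 24, 12 and 3 in HCT116. ATP6V0A1, further along, had 47 counts in PC3 and 37217 in HCT116. The genes on either side were counted in both lines, with 277 and 195 counts for ZNF385C and 6710 and 9961 for NAGLU.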
